A study of Mus musculus with 4 samples.

Results

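Cells positive for Cldn3 and for an Otog, Kif19a and Agr3 transcript set were examined in the thymus of 6-month-old C57BL/6 mice, as a counterpart of the age-associated thymic epithelial cells (TECs) of the first kind, aaTEC1. The cells were selected on their unique molecular identifiers (UMIs, 1 per captured transcript molecule): at least 1 of Epcam and 1 of Cldn3, at least 2 summed over Otog, Kif19a and Agr3, and 0 of each of Aire, Ptprc and Pecam1, in cells in which over 1000 genes were detected and mitochondrial UMIs made up under 20%. This rule found 220 cells among 10245 kept cells of the series. They are called Cldn3 Otog cells below, after the genes that chose them, and WT 1 gave 11 of them, WT 2 gave 0, Z/Z 1 gave 127 and Z/Z 2 gave 82.

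The 4 libraries are droplet-based 3′ single-cell RNA-seq of CD45-negative thymic stroma of untreated mice. The 2 WT libraries carry the label mock and a wild-type genotype. The 2 Z/Z libraries come from mice homozygous for a LacZ allele of Foxn1 that lowers its function. All groups share strain and age, thymi of several mice were digested together, and CD45-positive cells were depleted with beads before sorting, so the numbers of epithelial cells depend on digestion and on the sort. The sex is male in one field of the labels and female in the protocol. Nothing says that libraries of a genotype came from separate pools of mice, so p-values measure the spread between libraries, which may be technical.

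The thymic epithelium builds the cortex and the medulla in which T cells are selected, and FOXN1 is the transcription factor that keeps it functional. TECs display peptides on MHC class II, and medullary TECs driven by AIRE show developing T cells a broad range of tissue antigens. Claudin-3 is a tight junction protein found in medullary lineage TECs. Otogelin (Otog) is a glycoprotein of the acellular membranes of the inner ear, Kif19a is a kinesin that limits the length of motile cilia, Agr3 is an endoplasmic reticulum protein of ciliated airway cells, and Plet1 is a surface protein of early thymic epithelial progenitors.

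The genes lie on different chromosomes (mm10, GENCODE vM21): Cldn3 at chr5:134986214-134987472, Otog at chr7:46240987-46311434, Kif19a at chr11:114765388-114790739, Agr3 at chr12:35925620-35949736 and Plet1 at chr9:50494525-50505482, all on the plus strand. Otog has Ush1c (harmonin, a scaffold protein of hair cell bundles) as its neighbour on the minus strand, with 2483 bases between the genes, and both were high in the Cldn3 Otog cells (values below). Cldn3 and Cldn4 also face away from each other, with 39279 bases between them. The 250 bases before the annotated start of these genes are printed as a description. The rule asked for Cldn3 and for Otog, Kif19a or Agr3 UMIs in each cell, so finding Cldn3 with these genes was fixed by the selection. The sequences come from RefSeq (GRCm38.p6) and are given 5′ to 3′ on the strand of the gene. Of 6 genes looked up, 5 had an entry (Kif19a did not). Capitals mark the letters CAGGTG (an E-box) and ACAAAG (a SOX core), searched on both strands, whose matches do not overlap one another.
Cldn3, chr5:134985964-134986213, plus strand: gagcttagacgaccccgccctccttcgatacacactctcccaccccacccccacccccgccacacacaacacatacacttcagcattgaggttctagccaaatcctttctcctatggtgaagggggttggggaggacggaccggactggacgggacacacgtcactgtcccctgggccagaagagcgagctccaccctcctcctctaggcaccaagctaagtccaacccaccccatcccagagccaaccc
Otog, chr7:46240737-46240986, plus strand: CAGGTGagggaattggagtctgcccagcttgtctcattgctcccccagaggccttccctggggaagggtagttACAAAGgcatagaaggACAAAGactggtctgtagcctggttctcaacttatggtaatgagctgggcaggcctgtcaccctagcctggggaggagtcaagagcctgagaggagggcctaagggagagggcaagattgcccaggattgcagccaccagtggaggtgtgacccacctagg
Ush1c, chr7:46238491-46238740, minus strand: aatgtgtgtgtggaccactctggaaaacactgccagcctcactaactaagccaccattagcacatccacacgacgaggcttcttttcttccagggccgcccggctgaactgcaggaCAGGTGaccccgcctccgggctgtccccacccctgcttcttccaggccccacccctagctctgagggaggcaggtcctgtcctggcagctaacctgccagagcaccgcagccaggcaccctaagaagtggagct
Agr3, chr12:35925371-35925620, plus strand: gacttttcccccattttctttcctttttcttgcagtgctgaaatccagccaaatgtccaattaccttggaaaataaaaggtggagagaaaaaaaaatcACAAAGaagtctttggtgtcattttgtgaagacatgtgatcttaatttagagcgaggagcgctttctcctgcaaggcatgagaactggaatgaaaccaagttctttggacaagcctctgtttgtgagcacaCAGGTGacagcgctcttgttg
Plet1, chr9:50494275-50494524, plus strand: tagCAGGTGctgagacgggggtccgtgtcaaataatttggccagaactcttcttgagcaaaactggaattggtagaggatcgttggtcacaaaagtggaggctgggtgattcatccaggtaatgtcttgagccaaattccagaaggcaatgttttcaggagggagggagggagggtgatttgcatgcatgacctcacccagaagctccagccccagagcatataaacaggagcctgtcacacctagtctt

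CAGGTG occurred once each in the windows of Otog, Ush1c, Agr3 and Plet1, and in 17.2% of all 32851 promoter windows of this length. ACAAAG occurred at 2 places for Otog and 1 for Agr3, and in 16.5% of all windows. The letters GTTGCC (an RFX site, 10.4% of all windows), TGTTTAC (a FOX site, 3.17%) and AACCGGTT (a GRHL site, 0.116%) were also searched on both strands and were in none of the printed windows. These matches describe letters and not binding.

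The 3 program genes were mostly seen together in single Z/Z cells. The rule asked for at least 2 UMIs summed over them, which favours cells that hold several of these genes. Of 209 Z/Z cells, 113 (54.1%) held UMIs of Otog, Kif19a and Agr3, and 52 (24.9%) held Otog and Kif19a without Agr3. Kif19a alone with Cldn3 was seen in 19 Z/Z cells and Kif19a with Agr3 in 18, while Otog alone was seen in 4 and Otog with Agr3 in 3. The WT cells differed in makeup: 4 of 11 held all 3 genes, 1 held Otog and Kif19a, 3 held Kif19a and Agr3, and 3 held Kif19a alone. The summed UMIs of the 3 genes ran from 2 to 169 in WT 1 (median 7), from 2 to 347 in Z/Z 1 (median 24) and from 2 to 259 in Z/Z 2 (median 18). Just inside the threshold, 13 cells had exactly 2 such UMIs, with WT 1 holding 2, Z/Z 1 holding 7 and Z/Z 2 holding 4. Just outside it, 19 cells that met every other condition had 1 UMI, of which WT 1 held 1, WT 2 held 2, Z/Z 1 held 14 and Z/Z 2 held 2.

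The genes that chose the cells are given as a description. The level of Otog was 926 CPM (UMIs scaled to the sum of the library and population) in the Cldn3 Otog cells of WT 1, 1132 in those of Z/Z 1 and 842 in those of Z/Z 2, against 15.4, 12.3, 66.8 and 30.2 in the other Epcam cells of WT 1, WT 2, Z/Z 1 and Z/Z 2. Other Epcam cells are those with at least 1 Epcam UMI and none of Ptprc or Pecam1 that the rule did not choose. Kif19a was at 134, 249 and 238 CPM, and at 2.63 to 18.3 in other Epcam cells. Agr3 was at 92.8, 105 and 95.5 CPM against 0 to 4.34, and Cldn3 at 242, 233 and 402 CPM against 40.6 to 92.4.

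Free RNA in droplets was read from barcodes of at most 100 UMIs. There Otog was at 11.9 and 11.2 CPM in the WT libraries and at 159.7 and 87.0 in Z/Z, Kif19a at 2.23 to 41.6, and Agr3 at 1.12 to 10.9. Among fibroblasts (cells with at least 2 Pdgfra UMIs and none of Epcam), which should lack Otog, 0.287%, 0.943%, 4.75% and 1.83% had an Otog UMI, at a median of 15101, 14764, 11439 and 11001 UMIs per cell. In the Cldn3 Otog cells Otog UMIs were in 45.5% (WT 1), 85.0% (Z/Z 1) and 78.0% (Z/Z 2) of cells, at a median of 27552, 17276 and 18249 UMIs. After thinning each cell to 5000 UMIs these shares were 40.0%, 73.6% and 71.4%. The share in other Epcam cells was 1.33% to 8.57%.

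**Figure D1:**
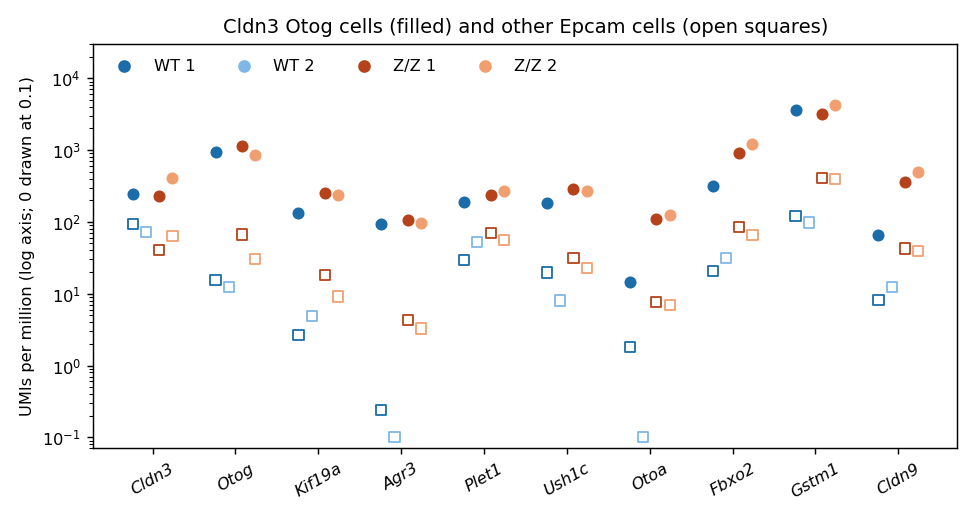
Levels of the genes of the rule (Cldn3, Otog, Kif19a, Agr3) and of 6 further genes, in CPM on a log axis, with 1 filled circle per library for the Cldn3 Otog cells and 1 open square per library for the other Epcam cells. WT 2 has no circle because it held 0 such cells, and in each library with such cells the circle lies above the square for every gene drawn.

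Plet1 is the only marker of these cells that the rule did not use. Its level in WT 1 was 191 CPM, that in Z/Z 1 237 and that in Z/Z 2 267, against 29.6, 53.0, 70.6 and 55.9 in the other Epcam cells. In the edgeR quasi-likelihood fit with library as a block it was 2.31 ± 0.21 (SE) log2 units higher (adjusted p = 0.0202). Without WT 1 it was 2.14 higher (adjusted p = 0.00174), in a fit where 3602 of 14660 genes passed. The Plet1 UMIs of WT 1 came from 4 cells, none of which held Otog, while 71 of 127 cells in Z/Z 1 and 51 of 82 in Z/Z 2 held Plet1. The markers were chosen with earlier results of these data known, so the Plet1 level describes the cells and is no independent check of the label aaTEC1-like. In WT 1 the cells with Otog and the cells with Plet1 were different cells.

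When the Epcam cells were clustered without the genes of the rule and without Plet1, 198 of 220 Cldn3 Otog cells (90%) fell in 1 of 22 clusters. This leading cluster held 307 cells, and it took 115 of 127 cells of Z/Z 1, 77 of 82 of Z/Z 2 and 6 of 11 of WT 1. Of the 109 cells in it that the rule had not chosen, 73 had no Cldn3 UMI and 61 had under 2 program UMIs, and 5 came from WT 2. Clustering used the same cells as the rule, so it describes how alike they are and tests nothing.

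The 11 cells of WT 1 were looked at one by one, because they are the WT side of the comparison of genotypes within these cells. In 5 of them Otog was present, at 5 to 151 UMIs, together with 23 to 649 UMIs of Gstm1 and 5 to 55 of Fbxo2, genes that were high in Z/Z cells as well, and all 5 were in the leading cluster. The other 6 held no Otog and 1 to 3 UMIs of Kif19a. A pair of them carried cilia genes, with 26 and 36 UMIs of Dnah9 (an axonemal dynein), 12 and 44 of Ccdc39 and 4 and 20 of Foxj1, the master regulator of motile cilia. Another pair carried 956 and 702 UMIs of Bpifa1, a secreted protein of the airway, with 24 and 48 of Plet1. One held 42 UMIs of Fezf2, a regulator of medullary TECs, and the last, of 14180 UMIs, held none of these at more than 5 UMIs but lay in the leading cluster. Otog, Gstm1 and Fbxo2 were thus found together in 5 of 11 WT cells, and Fbxo2 was in 97.6% and Gstm1 in 99.0% of the Z/Z cells. The smallest of these 5, of 2537 UMIs, had the barcode of a larger WT 2 cell (below), and whether it is a separate cell was not tested.

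**Figure D2:**
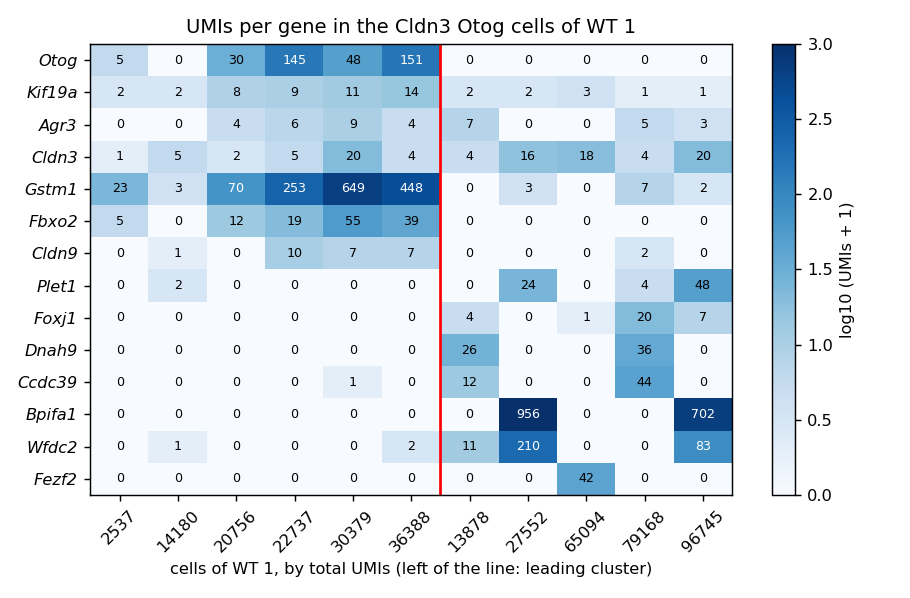
UMIs of 14 genes (rows) in each of the 11 Cldn3 Otog cells of WT 1 (columns, named by total UMIs), with shading for log10 of UMIs plus 1 and a red line between the leading cluster and other clusters. Otog, Gstm1 and Fbxo2 fill 5 of the 6 columns left of the line, and Foxj1 or Bpifa1 has UMIs in all 5 columns right of it.

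Libraries of a genotype shared called barcodes, 202 between the WT libraries and 249 between the Z/Z libraries. Of the Cldn3 Otog cells, 3 of WT 1, 40 of Z/Z 1 and 10 of Z/Z 2 had a barcode also called in the other library of their genotype. For all 40 of Z/Z 1 the cell in Z/Z 2 was the smaller, with 1.34% to 2.28% of the UMIs, and 2 barcodes met the rule in both libraries. A WT 1 cell of 2537 UMIs, with 5 of Otog, had the barcode of a WT 2 cell of 85865 UMIs with 160 of Otog. Results with each such barcode kept only in its larger library are given with the alternatives.

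The share of Cldn3 Otog cells among Epcam cells was higher in both Z/Z libraries than in both WT libraries. It was 2.94% in WT 1 (11 of 374, exact 95% interval 1.48% to 5.20%) and 0% in WT 2 (0 of 75, exact 95% interval 0% to 4.80%), where a limit of 3 counts allows a share of up to 4%. It was 10.3% in Z/Z 1 (127 of 1236, 8.64% to 12.1%) and 10.2% in Z/Z 2 (82 of 803, 8.20% to 12.5%). These intervals cover counting error only. The WT mean was 1.47% ± 2.08 (SD, n = 2) and the Z/Z mean was 10.2% ± 0.0448 (SD, n = 2), a difference of 8.77 percentage points. The groups did not overlap, and the exact two-sided permutation test gave p = 0.333, the smallest value that 2 libraries against 2 allow. As a share of all kept cells they were 0.725%, 0%, 2.74% and 2.27%.

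The 0 in WT 2 rested on single UMIs. In WT 2, 5 cells met the positive conditions, and 2 of them had 27 and 19 Aire UMIs. The other 3 had 15, 16 and 160 UMIs of Otog, with 1 UMI of Pecam1 in each of the first pair and 1 each of Aire and Ptprc in the third. When 1 UMI of Aire, Ptprc or Pecam1 was allowed, the WT shares became 2.74% and 2.61% and the Z/Z shares 11.2% and 10.4%, out of 474, 115, 1381 and 1162 cells. Thinning each cell to 5000 UMIs before the rule, which also removes some of these single UMIs, gave 1.15% (4 of 349), 2.82% (2 of 71), 8.93% (87 of 974) and 10.0% (72 of 719). Without the condition on Cldn3 the shares were 3.74%, 1.33%, 16.8% and 12.7%. Z/Z stayed above WT under each of these rules.

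**Figure D3:**
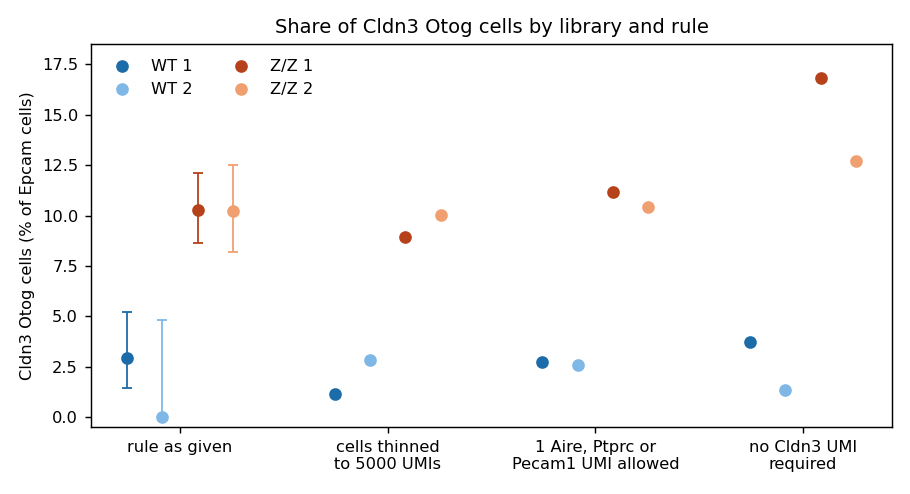
Share of Cldn3 Otog cells among Epcam cells (percent) in the 4 libraries, under the rule as given and under 3 altered rules, with exact 95% intervals for the rule as given. Both Z/Z libraries lie between 8.93% and 16.8% and both WT libraries between 0% and 3.74%.

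To ask what else these cells express, UMIs were summed per library over the Cldn3 Otog cells (409414, 3489849 and 2241847 UMIs in WT 1, Z/Z 1 and Z/Z 2) and over the other Epcam cells, and compared within libraries. Of 14713 genes tested, 237 were higher (1.61%) and 321 lower (2.18%) at an edgeR adjusted p under 0.05, with the 8 genes of the rule, ribosomal protein and haemoglobin genes left out. WT 2 has no Cldn3 Otog cells, so the fit used the 3 other libraries and the WT 2 levels given here entered no test. The sums come from the cells that the rule chose, so these tests say how evenly the libraries differ and are no independent evidence that the cells are a type. The median log2 difference over all genes tested was -0.06. Of the libraries left out in turn, WT 1 moved the counts most, since without it 1814 genes were higher and 1788 lower.

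Ush1c, Fbxo2 and Cldn14, of the 12 genes named for the largest differences, and Otoa, of the list of inner ear matrix genes, were higher in the Cldn3 Otog cells. Ush1c was at 181, 283 and 271 CPM in WT 1, Z/Z 1 and Z/Z 2, against 8.01 to 31.6 in other Epcam cells (3.40 ± 0.20 log2, adjusted p = 0.0103). Otoa (otoancorin, which attaches acellular gels to the epithelium of the inner ear) was at 14.7, 108 and 126 CPM against 0 to 7.72, a difference of 3.92 ± 0.32 (adjusted p = 0.0168). Fbxo2, a ubiquitin ligase subunit that recognizes glycoproteins, was at 318, 906 and 1222 CPM against 20.8 to 85.7 (3.94 ± 0.24, adjusted p = 0.0103). Cldn14, a claudin needed for hearing, was at 203, 115 and 112 CPM against 1.23 to 11.5 (4.54 ± 0.59, adjusted p = 0.0301). In these genes no library of Cldn3 Otog cells overlapped the other Epcam cells of any library. Ush1c, Fbxo2 and Cldn14 were picked for large differences, so this only describes them. How many of all genes separate in this way was not counted. When other Epcam cells with an Aire UMI were left out, Cldn14 did not pass (4.43 ± 0.76, adjusted p = 0.0629) and the other 3 did (adjusted p = 0.016 each).

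Of the list of inner ear matrix genes, 1 of 4 tested (Otoa) was higher and 0 lower, and the median of the 4 was 1.90 log2 units. Otogl, the closest relative of Otog, had UMIs in 1 of 220 cells, Tecta in 4 and Tectb, Ceacam16 and Oc90 in none. Cldn9, Col11a2, Col9a1 and Sox10 also passed the test, with differences of 3.36 ± 0.23, 3.79 ± 0.24, 4.01 ± 0.39 and 3.17 ± 0.43. They were picked out after their values were seen. Cldn9, a further claudin of the inner ear, was at 65.9, 363 and 489 CPM against 8.26 to 42.6. Sox10 is a Schwann cell marker too, and the other Schwann markers S100b and Ngfr had UMIs in 10.5% and 9.09% of the Cldn3 Otog cells. Summed, these 3 markers were at 4.89 CPM in WT 1, under the 7.33 CPM of 3 UMIs. They were at 62.5 and 80.3 CPM in Z/Z and at 11.5 to 22.6 in other Epcam cells, so the Sox10 difference rests on Z/Z. In edgeR, Sox10 did not pass against other Epcam cells without Cldn3, Otog, Kif19a and Agr3 (4.68, adjusted p = 0.0591).

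Among the 12 genes named for the largest differences the other 9 were Gas2, Tmod1, Gstm1, BC006965, Aldoc, Chst9, Clstn2, Trim16 and Rflnb. Gstm1, a glutathione transferase, was the most abundant of them at 3561, 3179 and 4245 CPM, against 98.0 to 406 in other Epcam cells (3.84 ± 0.40, adjusted p = 0.0221). It had UMIs in 98.2% of the Cldn3 Otog cells. Tmod1, which caps actin filaments, was at 107, 349.9 and 408 CPM against 9.69 to 34.0 (3.84 ± 0.30). Gas2 and Rflnb, both of which bind the cytoskeleton, were 4.02 ± 0.24 and 3.40 ± 0.17 higher. Aldoc, a glycolytic aldolase, was 3.72 ± 0.38 higher and Trim16 3.45 ± 0.26. Chst9, a sulfotransferase, had UMIs in 2 of 11 WT 1 cells and in neither the leading cluster nor the Otog cells of that library, so its value in WT 1 (252 CPM) came from other cells than the rest of this group. Chst9 and Clstn2 did not pass against other Epcam cells without Aire (adjusted p = 0.0796 and 0.0566).

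Tight junction and other epithelial adhesion genes were higher or did not pass the test. In the tight junction list 2 of 19 tested were higher and 0 lower, with a median of 1.02 log2 units. Among them was Cldn4, at 464, 132 and 161 CPM against 57.5 to 221 (1.44 ± 0.16, adjusted p = 0.0235). Cldn4 levels overlapped, since WT 2 other Epcam cells lay above the Z/Z cells, but the Cldn3 Otog cells were above the other cells of their own library each time. Of keratins and cadherins, 3 of 20 were higher and 0 lower (median 0.41). Krt8, a simple epithelial keratin, was at 2733, 3766 and 5517 CPM against 1026 to 1554 (1.70 ± 0.26, adjusted p = 0.0394), E-cadherin (Cdh1) was 1.04 ± 0.15 higher and plakoglobin (Jup) 0.90 ± 0.15. The basal keratins Krt5 (-0.19 ± 0.66) and Krt14 (-2.02 ± 0.66) did not pass. Against other Epcam cells without Aire, fewer of all genes passed, with 107 of 13096 higher and 78 lower. There 1 of 19 tight junction genes was higher, with Cldn4 kept (adjusted p = 0.0335). Of keratins and cadherins 0 of 19 passed, with adjusted p values of 0.0536 for Krt8, 0.0586 for Cdh1 and 0.0943 for Jup.

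Of the epithelial transcription factors, 5 of 26 tested were higher and 0 lower, with a median of 0.63. Ehf, an ETS factor of epithelia, was at 518, 262 and 298 CPM against 68.0 to 264 (2.01 ± 0.15, adjusted p = 0.0168). Id1 and Id2, inhibitors of helix-loop-helix factors, were 2.08 ± 0.21 and 1.37 ± 0.17 higher, Klf5 1.34 ± 0.15 and Sox9 1.19 ± 0.16. Growth factor receptors and co-receptors were split, with 3 of 17 higher and 1 lower (median -0.12). Erbb3, a neuregulin receptor, was at 51.3, 83.1 and 62.0 CPM against 11.9 to 21.0 (2.13 ± 0.27), Met, the receptor of hepatocyte growth factor, was 1.38 ± 0.20 higher and the proteoglycan Sdc4 1.39 ± 0.20. Nrp1 was 2.27 log2 units lower (-2.27 ± 0.31). Of the FGF and BMP receptors listed, none passed. Against other Epcam cells without Aire (107 of 13096 genes higher, 78 lower), Ehf alone was higher of 25 transcription factors (adjusted p = 0.0286). Of 17 receptors, Erbb3 was higher (0.049) and Nrp1 lower (0.0434) in that fit. Id1, Id2, Klf5, Sox9, Met and Sdc4 did not pass there, at adjusted p values of 0.0537 to 0.0927.

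Mesenchymal genes were not raised as a group. In the list of epithelial to mesenchymal transition, 0 of 15 were higher and 2 lower, with a median of -1.41. Vim (vimentin) was at 2.44, 19.5 and 22.3 CPM against 152 to 203 (-3.37 ± 0.44, adjusted p = 0.0304), and Zeb1, a repressor of E-cadherin, was at 80.6, 69.6 and 62.0 CPM against 96.1 to 228 (-1.41 ± 0.18). Free RNA in empty droplets held 163 to 442 CPM of Vim, and the part of free RNA in this difference was not tested.

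Several antigen presentation and medullary maturation genes were lower. The rule asked for 0 Aire UMIs, while the other Epcam cells include cells with Aire UMIs. The selection therefore favours lower levels of genes that are high in Aire cells. In the MHC class II list 3 of 10 were lower and 0 higher, with a median of -1.36, and all 10 had a negative difference. Cd74, the invariant chain, was at 2792, 2124 and 2840 CPM against 4579 to 9316 (-1.35 ± 0.22, adjusted p = 0.0459), and H2-Oa and Ctss were 2.58 and 2.81 log2 units lower (-2.58 ± 0.35 and -2.81 ± 0.36). H2-Aa, at 816, 661 and 692 CPM against 1216 to 2815, had an adjusted p of 0.0656. Of medullary maturation genes 4 of 13 were lower (Cd40, Tnfrsf11a, Spib and Ccl22) and 0 higher, with a median of -1.04. Tnfrsf11a, the RANK receptor through which mTECs mature, was at 46.4, 18.6 and 33.5 CPM against 80.2 to 229 (-1.86 ± 0.24). The counts of these and of the adhesion, transcription factor and receptor lists fell with other comparison cells, as did that of all genes. When other Epcam cells with an Aire UMI were left out, 107 of 13096 genes were higher and 78 lower. In the main fit it was 237 and 321 of 14713. None of the 10 MHC class II genes passed without Aire cells, at a median of -0.87, and all 10 stayed negative. None of the 12 medullary genes still tested passed, at a median of -0.13.

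Foxn1 was at 29.3, 30.4 and 26.8 CPM in the Cldn3 Otog cells, against 73.3 and 61.0 in the other Epcam cells of WT and 51.4 and 68.5 of Z/Z. All 3 values lay below all 4, but how many of all genes separate in this way was not counted. The edgeR fit gave -1.02 ± 0.23 with an adjusted p of 0.0797, which did not pass. Without WT 1, which leaves the Z/Z libraries alone with such cells, it gave -0.89 (adjusted p = 0.024). Passing was common in that fit, where 1814 of 14660 genes were higher and 1788 lower, so it adds little to the main result. Foxn1 in other Epcam cells overlapped between genotypes. A 3′ tag is counted at the end of a transcript, so these levels do not check the allele. Of the 13 FOXN1 targets and cortical genes 0 were higher and 0 lower, with a median of -1.17. Psmb11, the cortical proteasome subunit, was at 2.44, 10.3 and 3.12 CPM against 14.6 to 117, and Prss16, a cortical protease, at 12.2, 30.4 and 33.9 against 68.6 to 396.

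Of 15 cell cycle genes, 1 was higher, Ccnd1 (cyclin D1, 1.92 ± 0.21, adjusted p = 0.0237), and 0 were lower, with a median of -0.64. Of 11 immediate early and stress genes 0 passed, with a median of 0.28. Of 17 cilia genes and 20 airway secretory genes 0 passed in either direction. In those lists the libraries went different ways. The summed level of the 18 cilia genes was 1761 CPM in the WT 1 cells and 334 and 578 CPM in the Z/Z cells, against 387 to 459 in other Epcam cells, and that of the 24 airway genes was 6419, 524 and 849 CPM. Foxj1 was detected in 4 of 11 WT 1 cells, 1 of 127 Z/Z 1 cells and 4 of 82 Z/Z 2 cells, so Kif19a, Agr3 and Otog were found in most Z/Z cells without it.

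**Figure D4:**
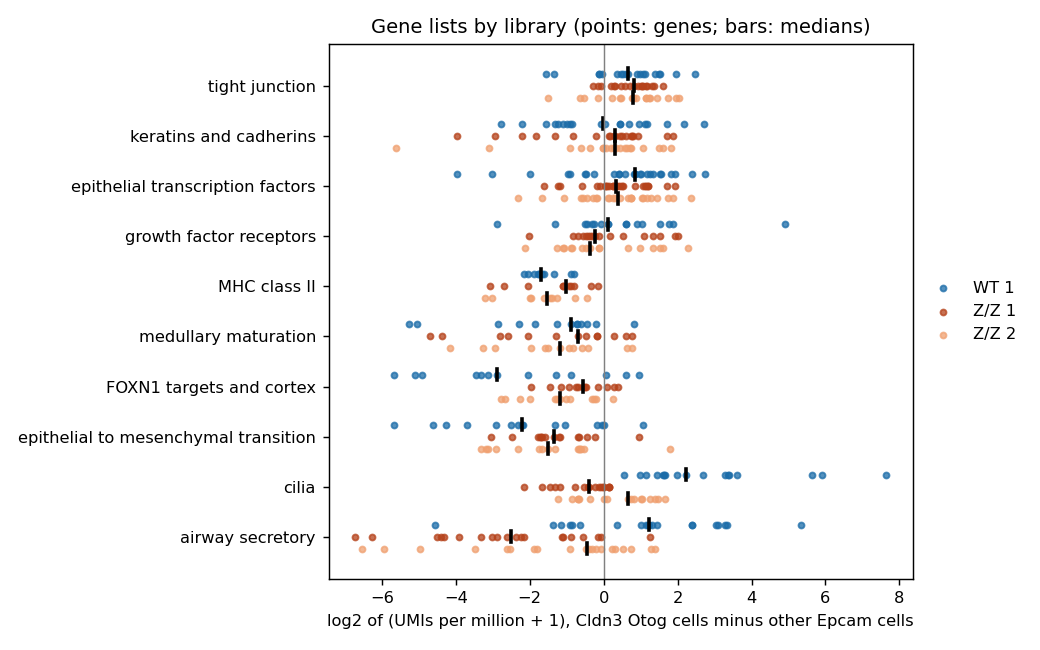
Difference between Cldn3 Otog cells and other Epcam cells on the log2 scale (CPM plus 1), 1 point per gene and library and 1 black bar per library for the median, for 10 gene lists in the 3 libraries with such cells. MHC class II, medullary, FOXN1 and mesenchymal genes have medians below 0 in each library, tight junction genes have medians above 0, and the cilia list is highest in WT 1.

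The 8 genes named for the lowest values mark other cells. Lypd8, a protein of intestinal epithelium, had 0 UMIs in all 220 cells, against 14.7 to 276 CPM in other Epcam cells. The parathyroid hormone gene Pth was at 0, 0.287 and 7.14 CPM against 22.8 to 1317 (-7.84 ± 0.63), and Chga, of neuroendocrine cells, at 0, 0.86 and 1.34 CPM against 3.08 to 331 (-7.50 ± 0.39). The other 5 are immunoglobulin genes, Ighg2b, Iglc1, Igkc, Ighm and Jchain. Igkc was at 9.77, 49.9 and 17.4 CPM against 38.0 to 34604 (-7.58 ± 1.16, adjusted p = 0.0403), and empty droplets held 1279 to 4234 CPM of it. These genes were uneven among other Epcam cells, with Igkc at 38.0 CPM in WT 1 and 34604 in WT 2. Igkc did not pass against other Epcam cells without Aire (-7.84 ± 1.35, adjusted p = 0.0629). In edgeR, Pth did not pass with the top 3.9% of doublet scores removed (-5.65, adjusted p = 0.151). Nor did it pass against other Epcam cells without Cldn3, Otog, Kif19a and Agr3 (-4.56, adjusted p = 0.244).

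Within the Cldn3 Otog cells, Z/Z was compared with WT. WT 2 has no such cells, so this sets 2 Z/Z libraries against the 11 cells of WT 1, and the lone WT library is assumed to vary like the Z/Z libraries. The 11 include the leading cluster cell of 2537 UMIs whose barcode was shared with a larger WT 2 cell. In Z/Z, 797 of 12268 genes were called higher (6.5%) and 1188 were called lower (9.68%), at a median of 0.09 over all genes. With the cells of the leading cluster alone, 6 in WT 1, only 59 were higher and 118 lower, of which 82 had been called before, at a median of 0.34.

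Among the 10 genes named as higher, Acbd7 (an acyl-CoA binding protein) had 0 UMIs in WT 1 and was at 158 and 127 CPM in Z/Z 1 and Z/Z 2. Against a limit of 3 UMIs in WT 1, Z/Z was at least 19.4-fold higher. Rgs4, a regulator of G protein signalling listed as a marker of the second kind of aaTEC, was at 12.2 CPM in WT 1 and at 499.7 and 389.9 in Z/Z (5.26 ± 0.50, adjusted p = 3.27e-06), and at 15.8 against 563 and 408 within the leading cluster (4.92, adjusted p = 0.00308). Gstm2 was at 19.5 against 185 and 225 CPM (3.46 ± 0.45), and within the leading cluster 3.14 log2 units higher (adjusted p = 0.022). Pgm5, Rrad, Pdgfd, Scn1a, Nlgn1, Plcl1 and C2cd4b were 3.49 to 5.86 log2 units higher. Scn1a, Plcl1 and C2cd4b did not pass within the leading cluster (adjusted p = 0.156, 0.0796 and 0.137). Free RNA moved the same way for Rgs4, at 16.6 and 11.2 CPM in empty droplets of WT and 121 and 87.0 of Z/Z, and its part in the difference was not tested.

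All 10 genes named as lower rested on 1 or 2 cells of WT 1. Bpifa1 was at 4050 CPM in WT 1 and at 0 and 0.446 in Z/Z, and its WT UMIs came from 2 of 11 cells, both outside the leading cluster. Tff1 (757 CPM), Ear1 (247), Pgc (205), Defb19 (186), Scgb1a1 (183), Pyy (178), Prss29 (151) and Tac2 (142) had 0 UMIs in Z/Z, and S100g was at 215 CPM against 0 and 0.446. Tff1 and Scgb1a1 are products of mucous and club cells, Pgc of the stomach and Pyy of gut endocrine cells. Each of the 10 had 0 UMIs in the leading cluster cells of WT 1.

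The gene lists gave different values over all cells and over the leading cluster. Far fewer of all genes passed with leading cluster cells, so counts of passing genes are not compared between these fits. Of 17 cilia genes 13 were lower in Z/Z and 0 higher (median -3.16), and of 17 airway genes 11 were lower and 1 higher (median -3.99). With leading cluster cells alone, the 6 cilia and 8 airway genes still tested had medians of 1.14 and 2.09, against 0.34 over all genes. MHC class II genes had a median of -0.09 over all cells, and the 7 still tested with leading cluster cells had a median of 2.45. There Cd74 was at 496 CPM in WT 1 and 2057 and 2719 in Z/Z (2.25 log2, adjusted p = 0.00684). Of keratins and cadherins 4 of 18 were higher and 4 lower. Krt18 was at 1930 CPM in WT 1 and 5162 and 8013 in Z/Z (1.85 ± 0.32, adjusted p = 0.00105), and with leading cluster cells it did not pass (0.85, adjusted p = 0.225). Fbxo2, Otoa and Cldn9, 1.82 ± 0.32, 3.07 ± 0.48 and 2.77 ± 0.38 higher in Z/Z, likewise had adjusted p values of 0.81, 0.172 and 0.145 with leading cluster cells. Plet1 did not pass over all cells (0.48 ± 0.30) and was 4.07 log2 units higher in Z/Z with leading cluster cells. Among those of WT 1, Plet1 UMIs were only in the cell of 14180 UMIs, which held 2. This is under the limit of 3 UMIs used for a count of 0.

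The remaining lists are read against the 6.5% higher and 9.68% lower over all genes tested. Z/Z had 2 higher and 4 lower of 19 tight junction genes, 1 and 0 of 3 inner ear matrix genes, 2 and 1 of 12 FOXN1 and cortex genes, 1 and 2 of 11 medullary genes and 4 and 2 of 13 mesenchymal genes. It had 3 and 2 of 17 receptors, 6 and 3 of 25 transcription factors, 1 and 5 of 11 cell cycle genes and 0 and 2 of 11 immediate early genes.

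To ask whether the genotype difference in these cells differed from that in the other Epcam cells, the population by genotype term was tested in the same 3 libraries. Of 17912 genes 427 had a more positive genotype difference in the Cldn3 Otog cells (2.38%) and 535 a more negative one (2.99%), at a median of 0.36 over all genes. Nlgn1, a synaptic adhesion protein, was named for its genotype difference in these same cells, so its term is a description. It was at 19.5 CPM in the WT cells and 284 and 211 in Z/Z, while the other Epcam cells held 498 and 412 (WT) against 489 and 427 (Z/Z), a difference of differences of 3.96 ± 0.30 (adjusted p = 0.00257). Over the 20 keratins and cadherins it had a median of 0.02, and 10 were positive. Picked from this list as a description, Krt5 had 3.48 ± 0.32 and Krt14 had -2.84 ± 0.26. This term contains the same WT 1 cells, and with leading cluster cells alone 552 genes passed in place of 962, of which 172 were shared.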

How the data were processed

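Reads had been processed by the authors with Cell Ranger 7.0.1 (per the file headers) on an mm10 reference, and the deposited values are raw UMI counts per gene and barcode for 32285 features, with called barcodes and all barcodes in separate matrices. The labels give the v2 kit and another part of the methods a v3 chip. The libraries held 2731, 1192, 5558 and 4500 called cells with 29298450, 8468086, 50705511 and 41475499 UMIs (WT 1, WT 2, Z/Z 1, Z/Z 2), of which 1517, 474, 4636 and 3618 were kept. Limits on genes and mitochondrial UMIs were applied per cell. No doublets were removed in the primary analysis. Scrublet marked 3 chosen cells by its automatic threshold, and leaving out the top 3.9% by score was an alternative. Intervals are exact Clopper-Pearson.

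UMIs were summed per library and population and tested with edgeR 4.0.16 (R 4.3.3) by quasi-likelihood F tests, two-sided, with TMM factors, filterByExpr and Benjamini-Hochberg adjustment over all genes tested, with library as a block where populations were compared. WT 2 has no chosen cells and entered no fit. The SE is the log2 difference divided by the square root of F. The study tested cells by rank-sum. Values are CPM of the sums. For clustering, UMIs were normalized to 10000 per cell, logged with a pseudocount of 1, and 3500 variable genes, 45 components, 20 neighbours and Leiden resolution 1 were used (scanpy 1.11.5, leidenalg 0.10.2). On simulated counts with 200 genes changed 4-fold at a dispersion of 0.1, the population test recovered 91.5% with 6 false calls among 15486 genes and the genotype test 17.5% with 1 among 13554. The simulation drew every library from the same mean profile. Its false calls therefore do not carry over to the few and mixed Cldn3 Otog cells of WT 1, where single cells set the level of some genes.

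The cells and the 13 gene lists were chosen with earlier results of these data known. Named genes had an adjusted p under 0.05, one direction in every library with chosen cells and at least 100 CPM in the higher population, and the 12 highest and 8 lowest were taken (for genotype, groups that do not overlap and 10 each way). Genes of the rule, ribosomal, haemoglobin, mitochondrial and predicted genes were not named, and the first 3 kinds were left out of the fits and their library sizes. The values of 1 tight junction gene are not reported here. Alternatives were DESeq2 1.42.0, no filter on low counts, cells thinned to 5000 UMIs, other comparison cells, shared barcodes counted once, altered rules, left-out libraries and the other Epcam cells of WT 2 included.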

Additional observations from a re-analysis of the deposited data

Results flagged for a closer look

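Of the 20 genes named for genotype, 19 were past the threshold in edgeR's test of the population by genotype term, which sets the genotype difference (Z/Z over WT) in the Cldn3 Otog cells beside that in the other Epcam cells. The genes had been chosen for a large genotype difference in the same Cldn3 Otog cells, so these values describe them and are no independent support for a difference between populations. All of them rest on the 11 cells of WT 1, and WT 2 was not in the fit. On the log2 scale it was more positive in the Cldn3 Otog cells by 4.54 for Pgm5, 4.12 for Rrad, 3.27 for Rgs4, 3.78 for Pdgfd, 2.83 for Scn1a, 3.96 for Nlgn1, 2.91 for Plcl1, 4.03 for C2cd4b and 2.42 for Gstm2. Acbd7 passed as well (adjusted p = 0.0235), with 0 UMIs in the WT cells.

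It was more negative by -12.38 for Bpifa1 and -6.86 for S100g, each of which had UMIs in 2 of 11 WT cells. Tff1 (adjusted p = 0.000848), Ear1 (0.0213), Pgc (0.00602), Defb19 (0.0415), Scgb1a1 (0.0052), Pyy (0.0179) and Tac2 (0.00293) passed in the same direction, with 0 UMIs in the Cldn3 Otog cells of both Z/Z libraries and UMIs in 1 or 2 cells of WT 1. No UMI of these 9 genes was in the leading cluster cells of WT 1.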

How the results depend on the processing

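The share of Cldn3 Otog cells was higher in Z/Z under all alternatives run, by 2.14 (of all kept cells) to 12.2 percentage points, and by 7.30 to 10.2 with each library left out in turn. The rules that allow 1 UMI of Aire, Ptprc or Pecam1 or need no Cldn3 were added after seeing the data. The counts of genes depended on the settings, and the causes were not tested. Against the other Epcam cells (237 higher, 321 lower), DESeq2 gave 602 and 1097, no filter 409 and 871, thinned cells 590 and 843, no library term 41 and 35, comparison cells without Aire 107 and 78, comparison cells without Cldn3, Otog, Kif19a and Agr3 368 higher (329 lower, within 1.5 times), and leading cluster cells alone, an alternative chosen after seeing the data, 1334 and 2116. Leaving out 1 library gave 114 to 1814 higher and 382 to 1788 lower, with 1814 and 1788 when WT 1 was out, 280 and 612 when Z/Z 1 was out, and 114 and 382 when Z/Z 2 was out. WT 2 holds no such cells and entered none of these fits, so leaving it out gives the same fit. Including its other Epcam cells, an alternative chosen after seeing the data, gave 241 higher and 408 lower, and 702 genes for the genotype term. Within the Cldn3 Otog cells (797 higher, 1188 lower in Z/Z), DESeq2 gave 177 and 423, thinned cells 66 and 126, leading cluster cells 59 and 118, no filter 1280 higher (1435 lower) and shared barcodes counted once 390 higher (804 lower). The genotype term (962 genes) gave 249 with DESeq2, 2317 with no filter and 552 with leading cluster cells. Of the values of named genes under alternatives, 714 kept direction and call, 114 kept direction and lost the call and 7 changed sign. Genes without a test result under an alternative are not counted there, so the tally can overstate stability. All 7 sign changes were for the genotype term with leading cluster cells: Bpifa1 5.21, Ear1 3.61, Defb19 6.12, Scgb1a1 2.53, Pyy 4.79, Tac2 0.26 and S100g 3.02 log2, none past the threshold. Each had 0 UMIs in the leading cluster cells of WT 1. These values therefore depend on the small count added in the fit and on the other Epcam cells. They show no reversed genotype difference in the Cldn3 Otog cells. No paired analysis was possible because WT 2 holds no Cldn3 Otog cells, so same-numbered libraries form fewer than 2 pairs. For the same reason no library could be left out of the genotype comparison, which could not be fitted without spread among libraries. Depth limits WT most, with 409414 UMIs over 11 cells. A count of 0 UMIs there allows 3 UMIs, 7.33 CPM.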
